A study of Mus musculus with 2 samples.

Results

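NF-kB subunits and feedback genes were examined in single-cell libraries of mouse tumours. The 8 genes were taken by symbol from the gene table: the subunit genes Nfkb1, Rel, Rela, Nfkb2 and Relb, and the inhibitor and feedback genes Nfkbia, Nfkbiz and Tnfaip3. All 8 of these symbols were found among the 32285 genes of the table, and their raw unique molecular identifier (UMI) counts were used. Cells of 4T1, a mouse mammary carcinoma line, had been grown as subcutaneous tumours. One group of mice was given AIE COF, a covalent organic framework preparation, with phototherapy, and the other was given PBS, a buffered saline. Tumours of both groups were collected on day 7 after phototherapy, and 1 library was made per group. The labels give the strain as C57BL/c and do not state the number of mice behind each library. With 1 library per group there is no replicate check and no test, so every interval below covers counting error only.

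NF-kB is a family of transcription factors that act as pairs of subunits. In resting cells the inhibitor I-kappa-B alpha, the product of Nfkbia, holds the pairs in the cytoplasm. Signals from receptors of TNF, interleukin 1, microbial products or antigen activate the I-kappa-B kinase complex, which marks the inhibitor for destruction and frees pairs such as RelA with p50. Nfkb1 gives p105 and its product p50, Rela gives RelA, and Rel gives c-Rel, a subunit known for its part in lymphocyte activation. Nfkb2 gives p100 and its product p52, which pairs with RelB in the alternative arm of the pathway. Several targets of NF-kB feed back on it: Nfkbia restores the inhibitor, Tnfaip3 encodes A20, an enzyme that edits ubiquitin on signalling proteins, and Nfkbiz encodes I-kappa-B zeta, a nuclear member that adjusts the set of targets.

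Promoter windows are shown first, because several of these genes are textbook targets of the factor they encode or hold back. RefSeq windows on GRCm38.p6 were present for 5 of the 8 genes, Nfkbia, Tnfaip3, Rel, Rela and Nfkb2, with 8 windows among them, and the 250 bases before each start were searched on both strands. The kappa-B consensus, a word of 10 bases, was found in 6 of these 8 windows, against 3.90% of all 32851 windows of the same length. By gene it was found in 4 of the 5, all but Rela. No share by gene was computed over all genes, and some Nfkb2 windows overlap each other. A looser form of the word, which fixes only its outer G and C bases, was in all 8 windows, but also in 45.8% of all windows. A match is a description of the letters and does not show binding, and overlapping matches in 1 stretch are shown once. Capitals mark the consensus word with up to 10 bases on each side, 5′ to 3′ on the strand of the gene.
Nfkbia chr12:55492657-55492686, minus strand: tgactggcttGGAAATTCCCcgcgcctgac
Tnfaip3 chr10:19015411-19015432, minus strand: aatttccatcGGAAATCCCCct
Rel chr11:23771041-23771070, minus strand: gtaagcagcgGGAAATCCCCccccctcccc
Nfkb2 chr19:46304689-46304718, plus strand: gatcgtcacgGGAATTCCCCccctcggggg
Tnfaip3 had a second match 115 bases before its start. Nfkb2 had a further match ending 1 base before its start, and 1 in each of its other windows. The words shown end 19 bases before the start of Nfkbia, 2 bases before that of Tnfaip3, 81 before that of Rel and 28 before that of Nfkb2. These starts are those of the RefSeq windows. By the GENCODE positions given below, the Tnfaip3 and Nfkb2 words lie inside the gene. The whole upstream window of Nfkbia (chr12:55492648-55492897, minus strand) is given for context.
Nfkbia upstream: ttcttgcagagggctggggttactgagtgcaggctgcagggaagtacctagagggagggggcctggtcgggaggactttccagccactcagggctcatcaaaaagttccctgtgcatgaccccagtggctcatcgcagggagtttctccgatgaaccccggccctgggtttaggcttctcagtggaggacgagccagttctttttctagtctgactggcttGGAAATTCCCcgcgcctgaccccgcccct

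Filters kept 8619 cells of the treated and 7864 of the PBS library, and the median cell had 3880 and 6380 UMIs respectively. Only 39 barcodes were found in both libraries. Cells were clustered without the 8 genes and named from marker genes, and 10 units had at least 100 cells in each library besides the whole libraries. These were B-like (1202 treated and 365 PBS cells), T-like (1557 and 693), macrophage-like (734 and 513), monocyte-like (851 and 550) and dendritic-like cells (158 and 131). A macrophage-like cluster of little RNA (500 and 783 cells) was kept apart, with medians of 877 and 949 UMIs. Most RNA came from cells with little Ptprc, which encodes CD45, the surface protein shared by leukocytes, and these cells were split into high RNA (2616 and 3102 cells) and low RNA (760 and 1567 cells). No marker list gave these cells a name, so they are called Ptprc-low. How far they are 4T1 cells was not tested. Among T-like cells, a naive-like subgroup (1036 and 239 cells) and a CD8-effector-like subgroup (149 and 267) were large enough to compare. Levels are given as CPM, the UMIs of a gene per 1e+06 UMIs, of the summed cells, with exact Poisson intervals where shown. The library is read from the 3' end, so CPM is not divided by gene length, and each gene is compared only with itself across classes.

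**Figure D1:**
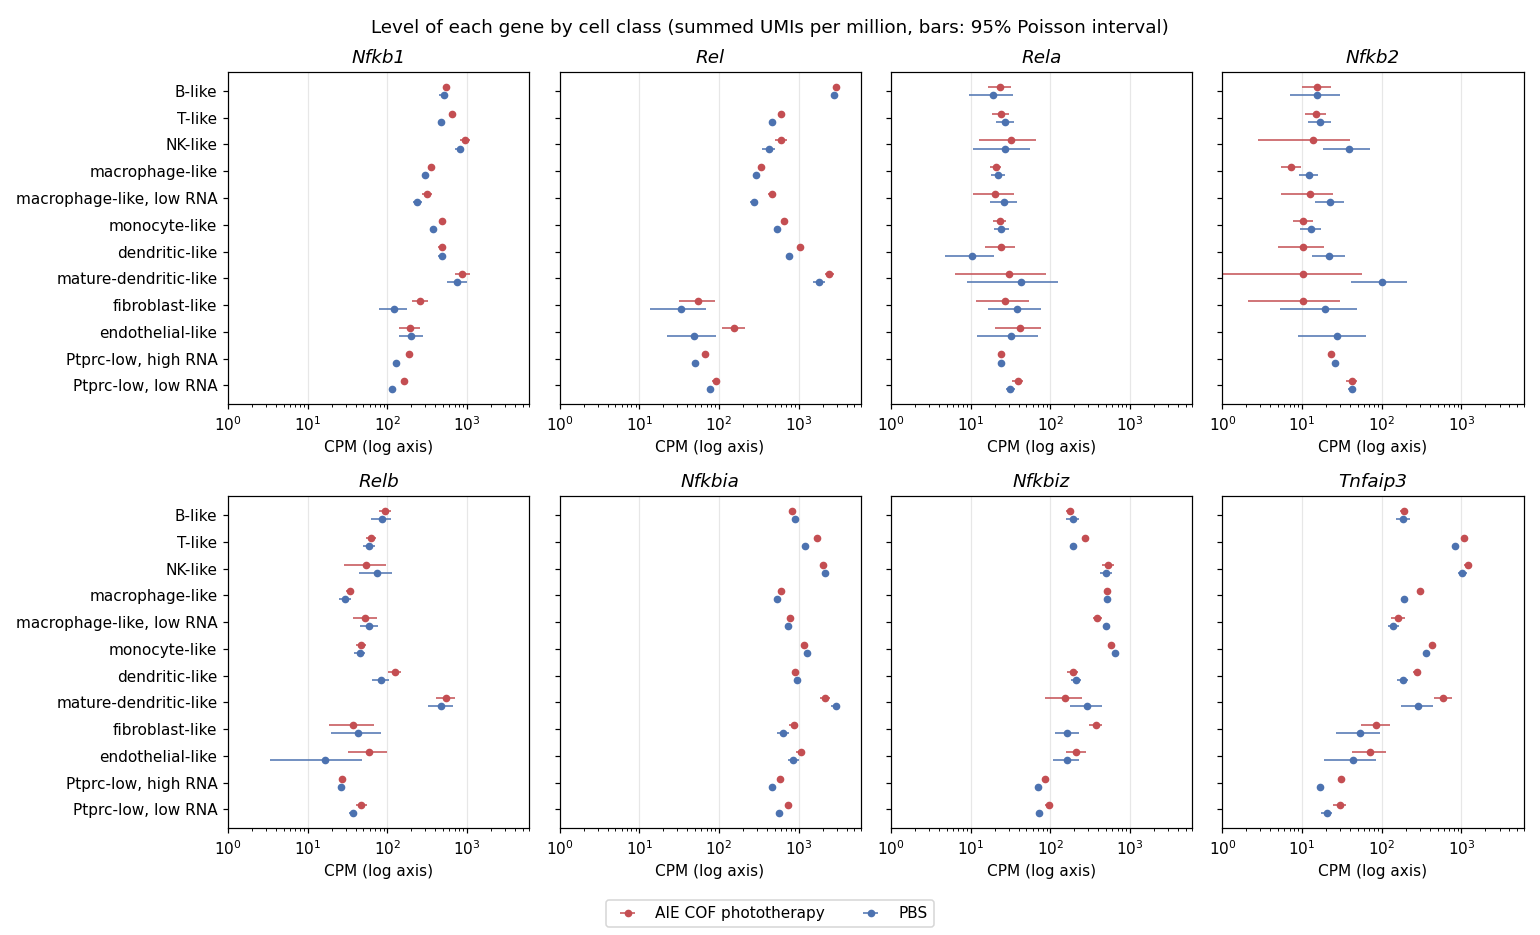
Level of each gene in CPM (log axis) in 12 cell classes, with the treated library in red and the PBS library in blue, and 95% Poisson intervals as bars. Rel is highest in B-like cells, Tnfaip3 in NK-like and T-like cells and Relb in mature-dendritic-like cells, while Rela lies between 10.4 and 43.2 CPM in every class plotted. No point is drawn where a gene had no UMI.

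Among subunits of the canonical arm, Rel varied most across cell classes. Rel (chr11:23736847-23770970, minus strand, GRCm38) stood at 2966 CPM (2880 to 3053) in treated and 2808 (2673 to 2948) in PBS B-like cells. Among the 8 classes of at least 100 cells it was next highest in dendritic-like cells, at 1041 and 750.4 CPM, and then in monocyte-like cells at 654.1 and 530.8 CPM. Mature-dendritic-like cells, a small part of the dendritic-like class, held 2429 and 1816 CPM. T-like cells held 605.2 and 466.2 CPM and macrophage-like cells 334.8 and 288.1 CPM. Ptprc-low cells of high RNA held only 67.0 and 50.05 CPM. In this order only 1 neighbouring pair per library had overlapping intervals, monocyte-like with T-like in the treated and both macrophage-like clusters in the PBS library. After every cell was thinned to 1000 UMIs, 85.8% of 781 treated and 77.3% of 304 PBS B-like cells had a Rel UMI, against 6.72% and 5.15% of Ptprc-low cells of high RNA. Thinning left out 421 treated and 61 PBS B-like cells that were shallower, and the shares without thinning were 84.1% and 83.0% in B-like cells and 71.3% and 64.5% in the far deeper Ptprc-low cells. As a gauge of free RNA, T-like cells thinned alike had a UMI of the B cell gene Cd79a in 0.604% of the treated and 0 of the 643 PBS cells, with a Clopper-Pearson upper bound of 0.572% for the latter.

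Nfkb1 and Rela, whose products form the classic p50 and RelA pair, differed from each other in how their levels varied across classes. Nfkb1 (chr3:135584655-135691547, minus strand) was at 654.6 CPM in treated and 473.6 in PBS T-like cells, 536.3 and 505.5 in B-like cells and 481.7 and 374.8 in monocyte-like cells. Of the 8 large classes it was lowest in Ptprc-low cells, at 185.6 and 127.7 CPM in those of high RNA and 161.3 and 113.7 in those of low RNA. Among small subgroups, regulatory-T-like cells (89 treated and 75 PBS cells) held 1095 CPM (939 to 1270) and 789.4 (661.0 to 935.6), and NK-like cells (98 and 91) held 941.4 and 810.1. Rela (chr19:5637483-5648130, plus strand) was nearly flat, between 20.2 and 38.9 CPM in the 8 large treated classes and between 10.4 and 31.4 CPM in the PBS ones. Its intervals overlapped those of the next class in all but 1 neighbouring pair of the treated library, the first, and in every pair of the PBS library. Ptprc-low cells of low RNA, at 38.9 and 31.4 CPM, were highest in both libraries, and dendritic-like cells had only 23 and 9 Rela UMIs.

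In the alternative arm, the level of Relb was highest in mature-dendritic-like cells, although 64.7% of its treated and 74.8% of its PBS UMIs lay in Ptprc-low cells of high RNA. Relb (chr7:19606217-19629438, minus strand) stood at 538.6 CPM (403.4 to 704.5) in the 27 treated and 475.5 (327.3 to 667.8) in the 19 PBS mature-dendritic-like cells, a sub-cluster marked by Ccr7 and Fscn1, which dendritic cells switch on as they mature and migrate. Relb was not among the markers that named this sub-cluster. Regulatory-T-like cells followed at 137.7 and 124.6 CPM. The whole dendritic-like class, which includes the mature cells, held 124.2 and 82.1 CPM, and B-like cells held 94.0 and 84.8. Of the 8 large classes Ptprc-low cells of high RNA were lowest, at 27.3 and 26.3 CPM. Nfkb2 (chr19:46304320-46312385, plus strand) ranged in the 8 large classes from 7.32 CPM in treated macrophage-like cells to 42.4 in PBS Ptprc-low cells of low RNA. Unlike the other members, Nfkb2 is overlapped in its last 500 bases by Psd on the opposite strand, so its counts are uncertain.

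Each feedback gene had its own distribution. Nfkbia (chr12:55489410-55492647, minus strand) was at 1680 CPM in treated and 1203 in PBS T-like cells, and at 1186 and 1289 in monocyte-like cells. Its small-subgroup levels were higher still: 2672 and 2600 CPM in regulatory-T-like, 2042 and 2165 in NK-like and 2154 and 2925 in mature-dendritic-like cells. Its lowest levels among the 8 large classes, 578.8 and 458.6 CPM, were in Ptprc-low cells of high RNA. Nfkbiz (chr16:55811375-55838899, minus strand) was highest in myeloid and NK-like cells, at 570.4 and 646.5 CPM in monocyte-like, 510.7 and 506.8 in macrophage-like and 532.1 and 503.0 in NK-like cells. B-like cells held 177.1 and 190.4 CPM of Nfkbiz, and Ptprc-low cells of high RNA 84.9 and 69.4. Tnfaip3 (chr10:19000910-19015657, minus strand) peaked in lymphocytes of the T and NK lineages, at 1214 and 1029 CPM in NK-like and 1078 and 834.0 in T-like cells. It stood at 430.4 and 357.4 CPM in monocyte-like and at only 189.4 and 185.2 in B-like cells, where Rel was highest. Ptprc-low cells of high RNA held 30.7 and 16.9 CPM of Tnfaip3, and those of low RNA 29.7 and 20.4, its lowest levels among the large classes. In T-like cells thinned to 1000 UMIs, Tnfaip3 was detected in 59.1% of the 1324 treated and in 50.5% of the 643 PBS cells that were deep enough, whereas without thinning the shares were 71.0% and 74.7%, with medians of 1625 and 2518 UMIs per cell.

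Summed over whole libraries, 3 of the 8 genes were at least 1.5-fold higher after phototherapy and none was as much lower. Tnfaip3 stood at 108.4 CPM in the treated and 52.5 in the PBS library, 2.07-fold higher (2.01 to 2.13). Rel stood at 187.4 and 100.7 CPM, 1.86-fold higher (1.82 to 1.90), and Nfkb1 at 235.4 and 152.4 CPM, 1.54-fold higher (1.52 to 1.57). Nfkbiz (150.3 and 109.3 CPM, 1.37-fold) and Nfkbia (660.6 and 516.7 CPM, 1.28-fold) differed less. Relb was at 32.7 and 29.2 CPM, Rela at 24.1 and 24.2 and Nfkb2 at 21.1 and 25.7. Of 15637 genes with at least 50 UMIs over both libraries, 8.61% were as much higher and 4.94% as much lower.

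Those whole-library ratios moved with the weight given to each cell class. B-like cells contributed 1.51% of all treated and 0.455% of all PBS UMIs, yet 23.9% and 12.7% of the Rel UMIs. T-like cells gave 2.998% and 1.80% of all UMIs and 29.8% and 28.7% of those of Tnfaip3. Ptprc-low cells of high RNA gave 77.6% and 83.1% of all UMIs but only 21.98% and 26.8% of the Tnfaip3 UMIs. When class levels were weighted by the same class make-up in both libraries, a calculation added after the data were seen, the log2 ratio of Tnfaip3 fell from 1.05 to 0.51, that of Rel from 0.90 to 0.31 and that of Nfkb1 from 0.63 to 0.46. None of the 8 genes was then 1.5-fold apart. With equal weight for each class the values were 0.38, 0.29 and 0.26, and Nfkb2 alone passed the fold, at -0.62. Both weightings took in every class with cells in both libraries, also those under 100 cells. No share over all genes was computed for either weighting. Nfkb2 had 0 treated and 5 PBS UMIs in endothelial-like cells (24 and 18 cells) and 3 and 10 in NK-like cells (98 and 91). How far such small classes set its value was not tested.

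**Figure D2:**
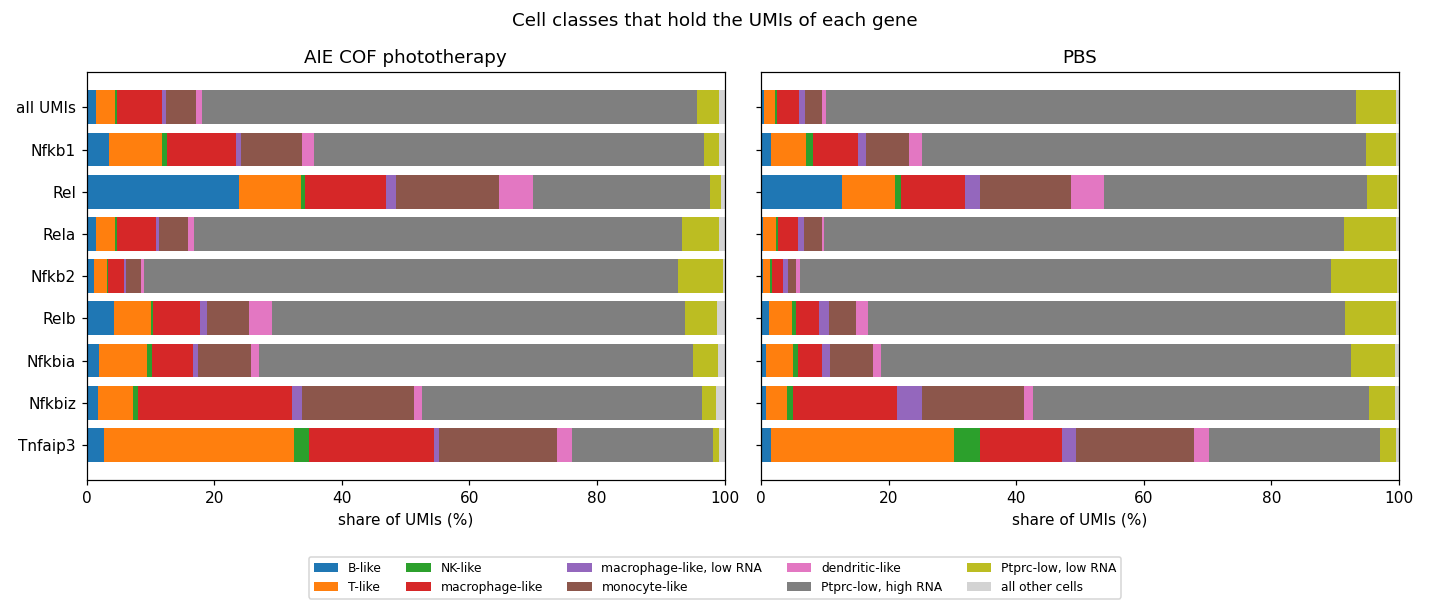
Share of UMIs (percent) that each cell class holds, for all UMIs and for each of the 8 genes, in the treated library (left) and the PBS library (right). The Ptprc-low classes hold most of all UMIs, while B-like cells hold 23.9% of treated Rel UMIs and T-like cells 29.8% of treated Tnfaip3 UMIs.

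**Figure D3:**
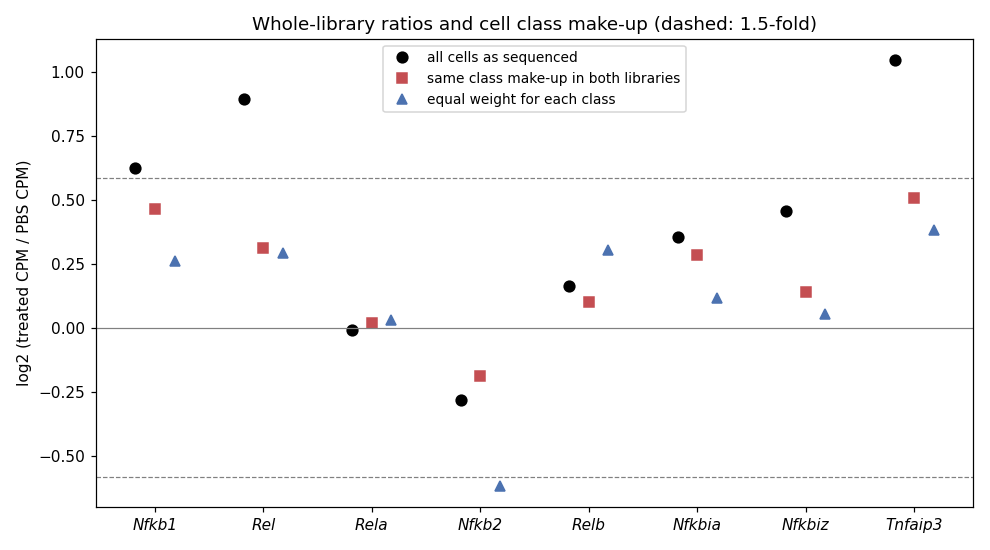
Log2 ratio of treated over PBS level for each gene over the whole libraries, as sequenced (black circles), with the same class make-up in both libraries (red squares) and with equal weight for each class (blue triangles). Dashed lines mark 1.5-fold, which Tnfaip3, Rel and Nfkb1 pass as sequenced and under neither weighting. Both weightings include classes under 100 cells.

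Within classes, CD8-effector-like T cells had the most genes past the fold, and differences between classes were not tested. There 4 of 7 measured genes were at least 1.5-fold higher in the treated library, in a class where 6.93% of 5033 genes were higher and 8.15% lower to that degree. Nfkbiz stood at 199.9 CPM in treated and 109.5 in PBS cells, 1.82-fold higher (1.43 to 2.33). Nfkbia stood at 1542 and 866.5 CPM, 1.78-fold higher (1.63 to 1.94). Nfkb1 stood at 641.4 and 378.5 CPM, 1.69-fold higher (1.48 to 1.93), and Rel at 604.2 and 389.7 CPM, 1.55-fold higher (1.36 to 1.77). Tnfaip3, at 1181 and 800.2 CPM, was 1.48-fold higher (1.34 to 1.62), just under the fold. Rela (18 and 38 UMIs, 0.529 to 1.77) and Relb (36 and 66 UMIs, 0.734 to 1.73) had intervals that span 1 and reach past 1.5-fold, so no direction can be read for them at this depth.

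This class joins a non-cycling sub-cluster (90 treated and 202 PBS cells) and a cycling one (59 and 67), and the size of the differences varied between them. Without the cycling cells the log2 ratios were 1.23 for Nfkbiz, 0.96 for Nfkb1, 0.77 for Rel, 0.77 for Nfkbia and 0.27 for Tnfaip3. In the cycling cells alone they were 0.48, 0.55, 0.51, 0.95 and 1.10, and Nfkbia and Tnfaip3 passed the fold. Relb stood at 0.71 in the cycling cells, from 22 and 23 UMIs, at -0.30 without them and -0.97 after thinning, and Rela reached 1.03 after thinning. With the libraries clustered separately, Tnfaip3 turned to -0.35, and the other 4 still passed. Thinning put Rel at 0.40 and equal weight for each cell put it at 0.58, either of which ended its call. Thinned values came from a single random draw with fewer UMIs, and no interval was computed for them. Of 19 measured immediate early and heat shock genes, which tissue dissociation can raise, 3 were higher and 3 lower in this class, with a median log2 ratio of -0.21. Jun was lower, at 103.8 and 198.9 CPM, Fos was level at 954.4 and 958.9, Egr1 stood at 125.5 and 138.6 and Atf3 at 58.9 and 74.5. Dusp1 was higher, at 582.5 and 372.5 CPM, and Hspa1a had 3 and 5 UMIs. B cell markers summed to 141.0 and 71.5 CPM in these cells and neutrophil markers to 63.5 and 19.4. Their part in these ratios was not tested.

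T-like cells as a whole had a different make-up in each library, with 1036 of 1557 treated but 239 of 693 PBS cells naive-like. None of the 8 genes passed the fold there, where 7.76% of 7524 genes were higher and 12.0% lower, but 5 had intervals wholly above 1. Nfkbiz stood at 275.6 and 195.1 CPM (1.41-fold), Nfkbia at 1680 and 1203 (1.40-fold), Nfkb1 at 654.6 and 473.6 (1.38-fold), Rel at 605.2 and 466.2 (1.298-fold) and Tnfaip3 at 1078 and 834.0 (1.29-fold). With equal weight for each sub-cluster the log2 ratio of Nfkbiz fell from 0.50 to 0.16. In naive-like T cells, where 8.90% of 4753 genes were higher and 5.11% lower, none of 6 measured genes passed the fold. Rel (511.4 and 362.6 CPM) was 1.41-fold and Tnfaip3 (1016 and 789.5 CPM) 1.29-fold higher there, and Nfkbia (1554 and 1384 CPM) 1.12-fold. The log2 ratio of Nfkbia was 0.83 in CD8-effector-like and 0.17 in naive-like cells, and that gap was not tested. B-like cells had none of 6 measured genes past the fold, where 7.01% of 5107 genes were higher and 4.35% lower. Ratios lay between 0.918 for Nfkbia and 1.11 for Relb, and every interval spanned 1. That of Relb (145 and 49 UMIs, 0.797 to 1.57) reached past 1.5-fold, so no direction can be read for it.

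**Figure D4:**
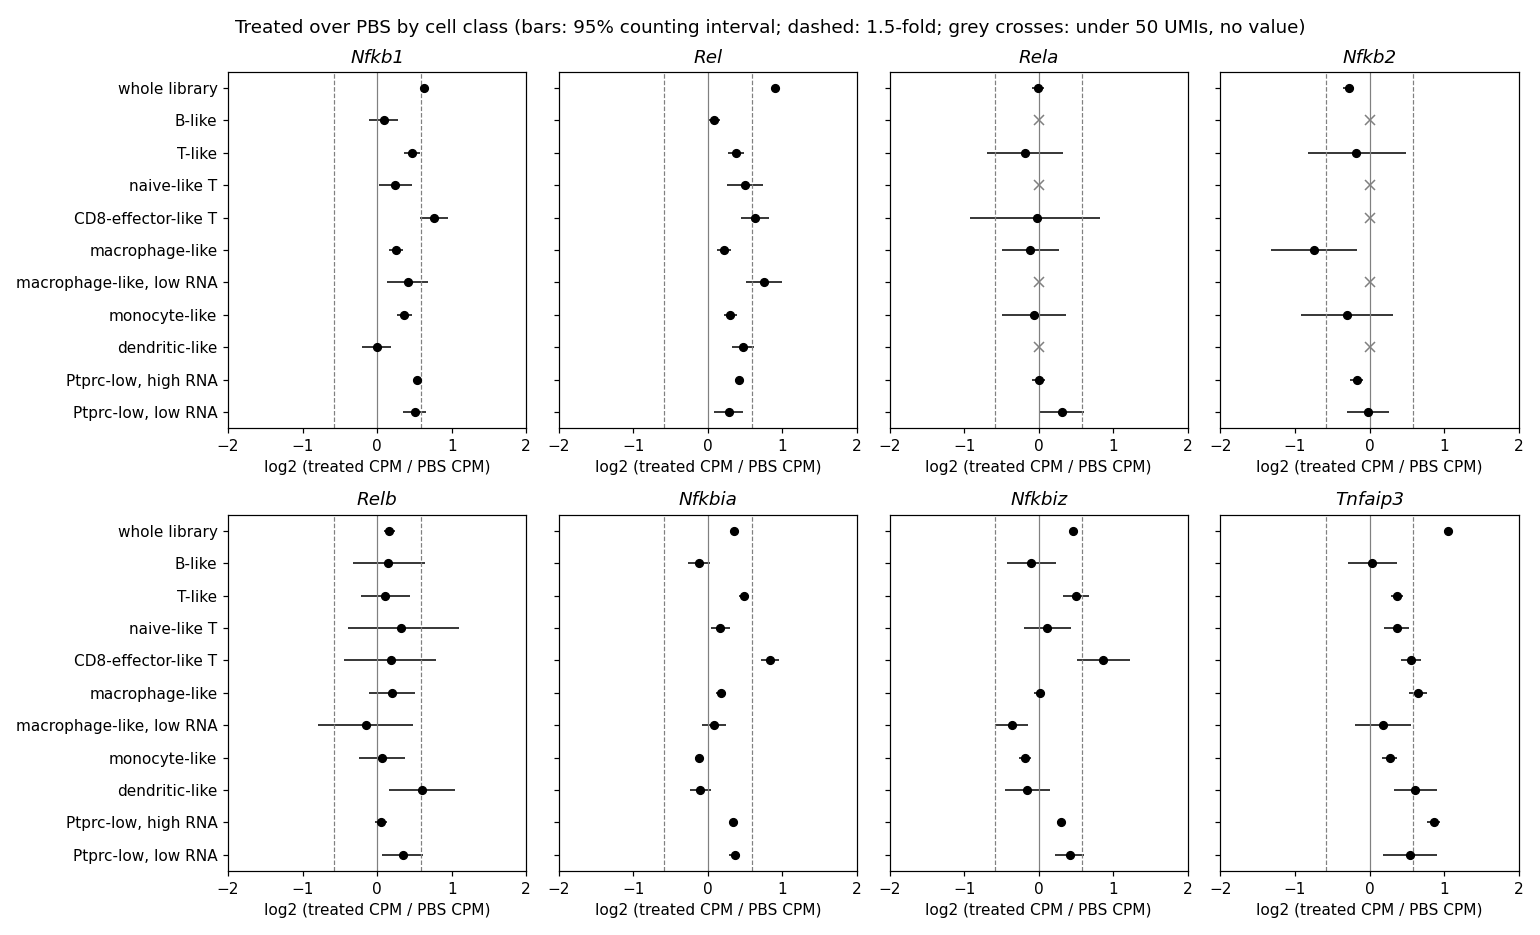
Log2 ratio of treated over PBS level for each gene in the whole libraries and 10 cell classes, with 95% counting intervals as bars, dashed lines at 1.5-fold and grey crosses, which carry no value, where a gene had fewer than 50 UMIs. Ratios in CD8-effector-like T cells lie past the fold for Nfkb1, Rel, Nfkbia and Nfkbiz, and the 6 measured B-like ratios lie between the dashed lines.

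Ptprc-low cells of high RNA carried more Tnfaip3 and Nfkb1 transcripts in the treated library. Tnfaip3 stood at 30.7 CPM in treated and 16.9 in PBS cells, from 2432 and 1784 UMIs, 1.81-fold higher (1.71 to 1.93), the only 1 of 8 genes past the fold. In this class 4.24% of 14220 genes were as much higher and 5.28% as much lower. Nfkb1 stood at 185.6 and 127.7 CPM (1.45-fold, 1.42 to 1.49), Rel at 67.0 and 50.05 (1.34-fold), Nfkbia at 578.8 and 458.6 (1.26-fold) and Nfkbiz at 84.9 and 69.4 (1.22-fold). Rela was level at 23.7 CPM in both libraries. All 4 clusters of the class had higher treated levels of both genes: Tnfaip3 at 28.9 and 16.9 CPM in the cluster led by histone genes, 29.7 and 15.3 in that led by Ero1l, 23.5 and 14.04 in that led by Dhdh and 38.2 and 20.4 in that led by Cilp and H19. Nfkb1 was at 184.4 and 128.8, 182.1 and 120.8, 140.7 and 111.7, and 213.5 and 144.2 CPM in the same clusters.

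Traces of immune transcripts lay in these Ptprc-low cells too, mostly more in the treated ones. All 14 T cell markers had UMIs there in both libraries and summed to 15.5 CPM in treated and 9.70 in PBS cells, with a median of 0.304% and 0.167% of their T-like level. The 13 B cell markers had medians of 0.255% and 0.0712% of their B-like level, and 1 of them, Ebf1, at 117.4 and 142.9 CPM, made up most of their sums of 133.9 and 150.6 CPM. The 14 macrophage markers had medians of 0.533% and 0.308% of their myeloid level and summed to 94.9 and 68.5 CPM. Scaling the levels of the members in those classes by these shares gave 5.63 CPM of Tnfaip3 in treated and 2.33 in PBS cells. With that amount subtracted, 25.1 and 14.6 CPM were left, a ratio of 1.72. Single markers varied widely around these medians, from 0.107% to 0.893% for T cell markers in treated cells. NK-like and dendritic-like cells were not among the sources, so RNA from them was not subtracted. Egr1 was lower in this class, at 193.1 and 290.6 CPM, and Atf3 (13.2 and 8.77) and Dusp1 (73.1 and 51.3) were higher, with Fos at 1483 and 1494 and Jun at 463.0 and 505.6. In cells without any Ptprc UMI the log2 ratio was 0.86, the same as in all cells of the class. For Rel the subtraction lowered the ratio from 1.34 to 1.20, and for Nfkb1 from 1.45 to 1.43. Thinning every cell to 1000 UMIs lowered the log2 ratio of Tnfaip3 to 0.42, which ended its call. That value came from a single random draw with far fewer UMIs, and no interval was computed for it. Ptprc-low cells of low RNA had no gene past the fold, against 5.32% of 9847 genes higher and 3.24% lower, with Tnfaip3 at 29.7 and 20.4 CPM (1.46-fold) and Nfkb1 at 161.3 and 113.7 (1.42-fold). Neutrophil markers summed to 438.6 CPM in treated and 42.4 in PBS cells of this class, with 4 of 12 at 0 in each, and macrophage markers to 805.0 and 500.1, and their part in these ratios was not tested.

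In macrophage-like cells Tnfaip3 stood at 298.5 CPM in treated and 190.4 in PBS cells, 1.57-fold higher (1.45 to 1.70). Nfkb2 was lower there, at 7.32 and 12.3 CPM from 53 and 55 UMIs, with a ratio of 0.597 (0.402 to 0.887) and the uncertainty from Psd. These were 1 higher and 1 lower of 8 genes, where 4.92% of 9370 genes were higher and 6.56% lower. Nfkbiz was level at 510.7 and 506.8 CPM. When doublets were kept, the macrophage-like cluster grew to 1508 treated and 1013 PBS cells with Cxcl2 as its leading gene, and the log2 ratio of Tnfaip3 was 0.36, which ended its call. Nfkb2 stood at -0.16 with the libraries clustered separately, which ended its call too. Hspa1a, a heat shock gene, was lower in these cells at 35.8 and 83.2 CPM, and Dusp1 higher at 1828 and 1350. Egr1 stood at 130.3 and 216.0 CPM, Jun at 373.4 and 503.9, Fos at 4882 and 4087 and Atf3 at 659.0 and 706.6, and their part in the Tnfaip3 value was not tested.

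Monocyte-like cells had no gene of 8 past the fold, where 3.95% of 8481 genes were higher and 5.73% lower, and their feedback genes had ratios on both sides of 1. Nfkbia stood at 1186 CPM in treated and 1289 in PBS cells, with a ratio of 0.920 (0.884 to 0.957). Nfkbiz stood at 570.4 and 646.5 CPM, with a ratio of 0.882 (0.834 to 0.934). Without doublet removal the log2 ratio of Nfkbia turned from -0.12 to 0.23, and that of Nfkbiz went from -0.18 to -0.03. Tnfaip3 was at 430.4 and 357.4 CPM (1.20-fold), Nfkb1 at 481.7 and 374.8 (1.29-fold) and Rel at 654.1 and 530.8 (1.23-fold). Of 24 immediate early and heat shock genes none was higher and 4 were lower past the fold in the same cells, with a median of -0.05. Jun stood at 512.4 and 936.6 CPM, Egr1 at 220.1 and 351.9, Hspa1a at 57.2 and 127.0 and Atf3 at 1130 and 1404, with Fos at 5695 and 5449 and Dusp1 at 2089 and 1840. Their part in the Nfkbia and Nfkbiz values was not tested. In the macrophage-like cluster of little RNA, Rel stood at 459.4 and 273.1 CPM (1.68-fold, 1.43 to 1.98) as 1 of 6 measured genes, and Nfkbiz at 387.8 and 496.8 (0.781, 0.669 to 0.909). There 7.03% of 5162 genes were higher and 7.90% lower. A stricter cell filter lowered the log2 ratio of Rel to 0.35 and put Tnfaip3 at -0.72.

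Dendritic-like cells had 2 of 6 measured genes past the fold, where 7.95% of 4882 genes were higher and 7.54% lower. Tnfaip3 stood at 279.4 CPM in treated and 182.7 in PBS cells, 1.53-fold higher (1.25 to 1.87). Relb stood at 124.2 and 82.1 CPM from 120 and 71 UMIs, 1.51-fold higher (1.12 to 2.06). Rel stood at 1041 and 750.4 CPM (1.39-fold), and Nfkb1 was level at 477.0 and 478.7. Mature-dendritic-like cells, the richest in Relb, were 27 treated and 19 PBS cells of the class. Leaving them out gave log2 ratios of 0.69 for Relb and 0.49 for Tnfaip3. Clustering the libraries separately turned Relb to -0.14 and lowered Tnfaip3 to 0.45, so the direction for Relb depended on the clustering. A sub-cluster of 14 cells was seen in the treated library alone and was led by the fibroblast genes Col3a1 and Dcn. Without it the values were 0.65 and 0.72. T cell markers summed to 86.9 CPM in treated dendritic-like cells, with none of 14 at 0, and to 16.2 in PBS ones, with 6 at 0. Fibroblast markers summed to 631.2 and 181.5 CPM, and the part of either in these ratios was not tested.

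Other genes of the pathway were described by 7 lists, read by counts and medians without a test. Over the whole libraries, 9 of 16 measured receptors were at least 1.5-fold higher and none lower, beside 8.61% and 4.94% of all genes. Their median log2 ratio was 0.62, against 0.0076 over all genes. Only 2 receptors passed with equal weight for each cell and 1 after thinning, settings for which no share over all genes was computed. Cd14, a co-receptor for bacterial lipopolysaccharide, stood at 82.0 CPM in treated and 36.3 in PBS, Tlr2 at 22.9 and 10.8 and Tlr7 at 6.63 and 3.19. Within macrophage-like cells 1 of 13 receptors passed, Cd14 at 412 and 267 CPM, beside 4.92% of all genes higher. The list median there was 0.12. Among ligands 4 of 9 were higher and none lower over the whole libraries, beside the same shares of all genes. Cd40lg, the T cell signal to CD40, stood at 3.20 and 0.954 CPM and Il1b, an inflammatory cytokine, at 204 and 85.9. Cd40lg in T-like cells, whose make-up differed between libraries, stood at 99.1 and 46.4 CPM. In naive-like T cells it stood at 107.8 and 88.0 CPM, a log2 ratio of 0.29 (-0.20 to 0.82). CD8-effector-like cells had 23 and 4 UMIs of it. Il1b was at 2887 and 2147 CPM in monocyte-like and 636 and 422 in macrophage-like cells. Tnf stood at 12.9 and 9.59 CPM over the whole libraries and at 26.2 and 17.1 in T-like cells. It stood at 93.3 and 124.9 CPM in monocyte-like and 73.1 and 91.6 in macrophage-like cells. In dendritic-like cells 2 of 3 measured ligands were lower, beside 7.54% of all genes, with a median of -1.03. Tnf stood there at 16.6 and 43.9 CPM, Ltb at 23.8 and 48.6 and Il1b at 1725 and 1155.

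Of 21 measured genes of the canonical kinase and adaptor list, 2 were higher over the whole libraries and none lower, beside 8.61% of all genes higher, with a median of 0.12. Malt1, which encodes a protease of antigen receptor signalling, stood at 69.4 and 40.7 CPM. In CD8-effector-like cells Malt1 stood at 218 and 277 CPM. The kinase genes Chuk (79.0 and 47.7 CPM) and Ikbkb (60.4 and 38.0) were the 2 of 13 that were higher there, beside 6.93% of all genes. Of 9 alternative arm genes 1 was higher and none lower over the whole libraries, beside 8.61% and 4.94% of all genes. It was Tnfrsf13c, which encodes the receptor for the B cell survival factor BAFF, at 1.98 and 0.812 CPM. In B-like cells it stood at 108.3 and 121.2 CPM. Map3k14, which encodes the kinase that starts this arm, was at 15.4 and 16.1 CPM over the whole libraries and at 42.8 and 26.7 in T-like cells. Within these it was at 51.7 and 47.2 CPM in naive-like cells and had 8 and 25 UMIs in CD8-effector-like ones.

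Of 16 other inhibitors 2 were higher and none lower over the whole libraries, beside the same 8.61% of all genes, with a median of 0.13. In T-like cells 3 of 15 were higher and 3 lower, beside 7.76% and 12.0% of all genes. Nfkbid, a nuclear I-kappa-B relative, stood at 22.4 and 12.95 CPM and Zc3h12a, which encodes an RNase that degrades inflammatory transcripts, at 12.8 and 7.80. In CD8-effector-like cells 3 of 11 were higher and 1 lower, beside 6.93% and 8.15% of all genes. Zc3h12a stood there at 41.8 and 22.4 CPM, Otulin, a deubiquitinase, at 118 and 67.8, N4bp1 at 119 and 73.8 and Rnf11 at 32.5 and 50.7.

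Over the whole libraries 11 of 30 measured targets were higher and 1 lower, beside 8.61% and 4.94% of all genes. Their median log2 ratio was 0.35. After thinning 6 were higher, and no share over all genes was computed for that setting. Il12b, a subunit gene of interleukin 12, stood at 4.76 and 1.67 CPM, the neutrophil attractant Cxcl2 at 229 and 87.4, and Nos2, the inducible nitric oxide synthase, at 3.27 and 6.98. In CD8-effector-like cells 5 of 17 were higher and 1 lower, beside 6.93% and 8.15% of all genes. Cd83 stood there at 66.6 and 20.9 CPM, Gadd45b at 253 and 139 and the chemokine Ccl3 at 558 and 314, against Ccl5 at 1162 and 1766. Monocyte-like cells had 1 of 28 higher and 5 lower, beside 3.95% and 5.73% of all genes. Ccl3 stood in them at 505 and 937 CPM and Ccl5 at 680 and 1276, and Il12b had 3 treated and 116 PBS UMIs. Macrophage-like cells had 4 of 26 higher and none lower, beside 4.92% and 6.56% of all genes, with Cxcl2 at 1362 and 726 CPM. Ptprc-low cells of high RNA had 8 of 27 higher and 1 lower, beside 4.24% and 5.28% of all genes. Cxcl2 (6.73 and 2.03 CPM) and Il1b (4.63 and 1.84) were, however, at traces there beside their myeloid levels. B-like cells had none of 12 on either side, where 7.01% of all genes were higher and 4.35% lower. Immediate early and heat shock genes had 4 of 24 higher and 2 lower over the whole libraries, beside 8.61% and 4.94% of all genes. Nr4a1 stood at 65.4 and 33.2 CPM and Hspa1b at 7.01 and 23.2. Their median was 0.24 there and -0.21 in CD8-effector-like cells. Tnf, Il1b, Birc3 and Ier3 stand in 2 lists each.

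**Figure D5:**
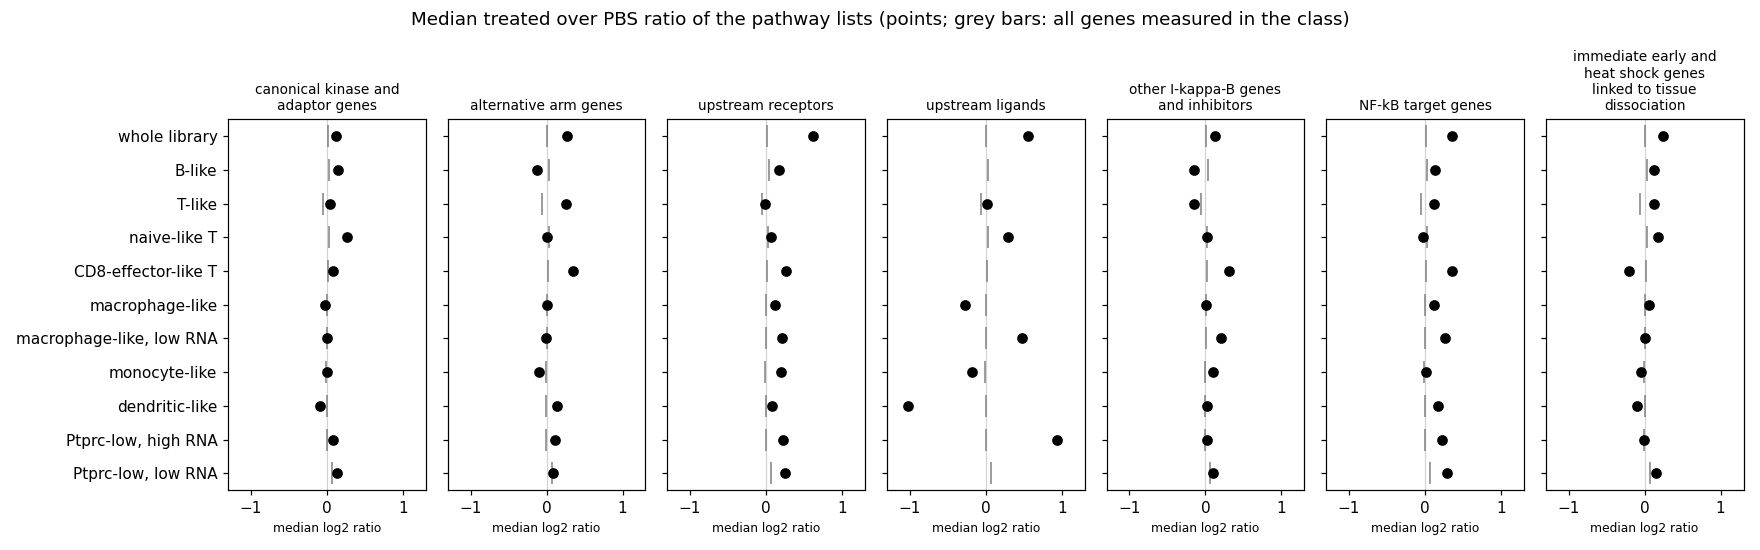
Median log2 ratio of treated over PBS level of each of 7 gene lists (black points) in the whole libraries and 10 cell classes, beside the median of all measured genes (grey bars), with no point where fewer than 3 list members were measured. Receptors and ligands have whole-library medians of 0.62 and 0.55, and targets 0.35.

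Across 8 cell classes in 2 libraries, 16 points in all, some members had similar patterns of level. The points share libraries and depth, so Pearson's r of log2(CPM + 1) is a description. Nfkb1 went with Tnfaip3 (r = 0.91) and Rel (0.89), Rel with Relb (0.80) and Nfkbia with Tnfaip3 (0.80). Nfkb2 ran opposite to Nfkbiz (-0.75), Tnfaip3 (-0.74) and Nfkb1 (-0.71). Of 5500 genes compared, the most alike to Rel were Fbxo11 (0.99), Birc3 (0.98) and Lats2 (0.98). Those nearest to Nfkb1 were Ppp2r5a (0.97), Tob2 (0.96) and Stk4 (0.96), and to Tnfaip3 Atp11b (0.98), Znrf2 (0.96) and Galnt6 (0.96). Nfkbiz had Cpeb2 (0.97), Il17ra (0.97) and Slc43a2 (0.97) nearest, Relb had Nup98 (0.93), Ino80 (0.91) and Itpr1 (0.90), and Nfkbia had Dusp5 (0.89), Zc3hav1 (0.87) and Cdk2ap2 (0.85). The nearest genes were Psmb5 (0.92) and Arglu1 (0.91) for Nfkb2 and Psmd9 (0.82), Tmem208 (0.81) and Mbtps1 (0.77) for Rela.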

How the data were processed

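The authors deposited whole UMI counts per gene and barcode, with no normalization. Tumour suspensions were prepared with the MobiCube 3' kit and sequenced on NovaSeq, per the labels' protocols, and STAR and mm10 were used, per the submitters' processing notes. The labels name no counting program. The libraries held 10002 treated and 8962 PBS barcodes with 115576457 and 145045294 UMIs.

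Barcodes with at least 200 genes and at most 20% mitochondrial UMIs were kept. Scrublet in scanpy 1.11.5 removed 694 treated and 569 PBS doublets. Cells were clustered (Leiden, resolution 1.0, 2000 variable genes, 30 components) without the 8 genes, and clusters were named from marker lists. The split of macrophages by RNA content, the dendritic sub-clusters and the Ptprc-low classes were set after the clusters had been seen. UMIs were summed per class and library. Intervals are 95% exact Poisson, Clopper-Pearson or conditional binomial and cover counting error only. A gene was measured with 50 UMIs over both libraries and called at 1.5-fold. Named genes are the 8, per list up to 3 of the largest and 3 of the smallest ratios, a few list members chosen after their values were seen, and the 3 genes most alike to each of the 8. Some genes that this rule names are not reported here. The 8 genes and the lists were chosen with earlier results of these data known. In simulated data with whole-library totals and 15633 genes, 98.0% of genes 2-fold apart and 1.17% of unchanged genes were called, and intervals held the true value in 95.3% of genes. With the totals of CD8-effector-like T cells and 5033 genes these shares were 94.3%, 5.04% and 95.8%. Counts were drawn as Poisson values, the error that the intervals assume, with no variation between animals, libraries or cells. Coverage near 95% was thus set by the design, and these shares are not error rates of the treated against PBS calls. Gene positions are from GENCODE M21.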

Additional observations from a re-analysis of the deposited data

How the results depend on the processing

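No paired analysis was possible because each group has 1 library, and the replicate number they share pairs nothing. Under each alternative the ratio of every measured gene and the counts past the fold were recomputed. Of 79 ratios, 69 kept their sign without doublet removal, 77 under a stricter cell filter (500 genes, 10% mitochondrial), 72 with equal weight for each cell, 67 after thinning and 78 when scaled by the median ratio, and 57 of 65 when the libraries were clustered apart. Of the 13 ratios past the fold, 9, 11, 10, 10 and 13 stayed past it under the first 5 of these, and 6 of 9 under the last. Over whole libraries 3 genes were higher, but 0 with equal weight for each class, when 1 was lower, and 0 with the same class make-up. Both of these weightings included classes under 100 cells. In macrophage-like cells 1 was higher and 1 lower, but 0 and 0 without doublet removal, and 0 lower with equal weight for each cell, thinned cells or libraries clustered apart. In the macrophage-like cluster of little RNA 1 was higher, but 2 without doublet removal or with equal weight for each cell, and 0 under the stricter filter, when 2 were lower. Monocyte-like cells had 1 lower when the libraries were clustered apart. In dendritic-like cells 2 were higher, but 0 without doublet removal or when the libraries were clustered apart, and 1 under the stricter filter, thinning or without the mature sub-cluster. Ptprc-low cells of high RNA had 1, but 0 when thinned and 3 when clustered apart, and those of low RNA 0, but 1 and 3. Naive-like T cells had 0, but 1 without doublet removal, and CD8-effector-like cells 4, but 2 in the cycling sub-cluster alone. Relb in dendritic-like cells reversed to -0.14 with separate clustering, and the ligand median there turned to 0.22 with members of at least 10 UMIs. For the counts past the fold given above, no share over all genes was computed under any of these alternatives. A changed count can therefore not be told from a change in the share of all genes past the fold. List counts over whole libraries were likewise recomputed without shares over all genes. Equal weight for each cell gave 2 higher alternative arm genes, 2 receptors and 1 inhibitor, and thinning gave 1 receptor and 6 targets. The cause was not tested for any of these. Thinned ratios came from a single random draw with fewer UMIs and have no intervals. Depth limits Nfkb2 and Rela most, with fewer than 50 UMIs in several classes. Settings chosen after seeing the data were the same class make-up, the sub-clusters left out, the joined macrophage clusters, equal cluster weights, cells without a Ptprc UMI and the subtraction of immune RNA.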
